A study of Mus musculus with 2 samples.

Results

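The genes of adenosine production, uptake and degradation were 9 of the 34244 genes counted in mouse liver cells, chosen by name in the deposited gene list: Ada, Adk, Pnp, Entpd1, Nt5e, Slc29a1, Adora2a, Adora2b and Xdh. Adenosine is a purine nucleoside that signals outside cells and is rebuilt or degraded inside them. ATP and ADP that leave a cell are cut to AMP by CD39, the product of Entpd1, and AMP is cut to adenosine by CD73, the product of Nt5e. Adenosine acts on receptors, among them the products of Adora2a and Adora2b, which raise cyclic AMP, or enters cells through the equilibrative transporter ENT1 (Slc29a1). Inside, adenosine kinase (Adk) returns it to AMP. Alternatively adenosine deaminase (Ada) turns it into inosine, which purine nucleoside phosphorylase (Pnp) splits to hypoxanthine and xanthine dehydrogenase (Xdh) oxidises to urate. The endothelium of the liver faces both blood and parenchyma and expresses several of these genes. The set was proposed from results of an earlier pass over these same libraries, above all the ratio of Ada, so the differences between the libraries are given as descriptions.

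The data were 2 droplet single-cell 3′ RNA libraries, each from the liver of 1 C57/BL6 mouse on a synthetic diet. The PCB126 mouse was given PCB126 at 20 µg/kg/day by gavage. This polychlorinated biphenyl acts like dioxin by binding the aryl hydrocarbon receptor (AHR). The Control mouse was given the vehicle, peanut oil, and carries the treatment label "Untreated". Both mice were exposed for 5 weeks and fasted overnight, their age label reads postnatal day 21, and both livers were dissociated, depleted of hepatocytes by spins and straining and lysed for red cells. The labels speak of a gavage given on a single occasion beside a dose per day. With 1 mouse per group no test between groups was possible, and mouse and treatment cannot be told apart. All ratios are PCB126 over Control, and all intervals are 95% intervals that cover counting error only.

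The PCB126 library gave 1138 cells with a median of 6576 UMIs (unique molecules counted), and the Control library 1858 cells with a median of 5252.5. The median mitochondrial share was 12.2% in PCB126 cells and 7.58% in Control cells, and a further 1698 PCB126 and 412 Control barcodes were left out on that share alone. The libraries shared 3 barcodes, of which 0 were cells. Cells were classed by fixed marker lists and are named "X-like". LSEC-like cells, named for the sinusoidal endothelium with its fenestrae, were 459 PCB126 and 164 Control cells. Vascular endothelial-like cells, which line larger vessels, were 125 PCB126 and 97 Control cells, with a further 54 PCB126 and 26 Control cells between these 2 endothelial classes. Neutrophil-like cells were 96 PCB126 and 780 Control cells, and those resembling cholangiocytes, the epithelium of bile ducts, were 83 PCB126 and 65 Control cells. All 12 LSEC markers had UMIs in the LSEC-like cells of both libraries, where they summed to 18587 CPM (UMIs scaled by the total of the class) in PCB126 cells and 14626 CPM in Control cells. Since cells were classed by these same markers, high sums follow from the classing. Cyp1a1, the monooxygenase gene used as a readout of AHR activation, stood at 4499 CPM in PCB126 and 23.4 CPM in Control LSEC-like cells, and at 5732 CPM in PCB126 and 338.5 CPM in Control vascular endothelial-like cells. The treatment label and this readout thus pointed the same way.

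Promoter sequences of the members are shown because AHR, which PCB126 binds, recognises a short DNA core. The promoter table of RefSeq (GRCm38.p6) holds 250 bases before and 50 after each start, and 7 of the 9 members matched an entry there. The AHR response element core GCGTG was searched on both strands and is printed in capitals, 5′ to 3′ on the gene's strand. On the opposite strand it reads CACGC. The Ada promoter up to 8 bases past the start (chr2:163750232-163750489, minus strand) is
Ada promoter: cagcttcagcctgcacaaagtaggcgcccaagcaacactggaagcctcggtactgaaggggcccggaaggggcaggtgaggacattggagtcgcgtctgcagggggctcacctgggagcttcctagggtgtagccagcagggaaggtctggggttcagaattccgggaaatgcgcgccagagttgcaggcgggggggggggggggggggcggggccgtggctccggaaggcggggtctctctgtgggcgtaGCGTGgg
The core at its end begins at base 2 of the annotated transcript, and another begins at base 42, both within the annotated 5′ UTR in GENCODE M21. Windows of 20 bases around cores of the members are shown for each member that holds one, for Slc29a1 from its promoter 4 alone, since cores in its promoters 5 and 6 are left out:
Ada, start plus 2 (chr2:163750227-163750246, minus strand): tgggcgtaGCGTGggcgggg
Ada, start plus 42 (chr2:163750190-163750209, minus strand): ggtaaaaaagaGCGTGgcgg
Slc29a1, promoter 4 of 8 (chr17:45595940-45595959, minus strand): gaataatgGCGTGggcgggg
Slc29a1, promoter 4 of 8 (chr17:45595895-45595914, minus strand): gaggtggaGCGTGgcttgtg
Entpd1, promoter 1 of 2 (chr19:40612340-40612359, plus strand): ttagcggcGCGTGgttcccg
Nt5e (chr9:88327463-88327482, plus strand): tgcgggctGCGTGtgctggg
Adk, promoter 2 of 2 (chr14:21075991-21076010, plus strand): gctagcccGCGTGgcagcga
Adora2b (chr11:62248934-62248953, plus strand): cgtaaggcCACGCccccgcc
Of the 7 members with an entry, 6 held the core in at least 1 promoter, as did 35.2% of the 27025 genes and 32.4% of the 32851 promoters in the table. Slc29a1 has 8 entries, of which 3 held the core, so it had more chances than a gene with 1 entry. The first Ada window and the first Slc29a1 window share the 12 bases GCGTGGGCGGGG, which were noticed in these windows and which 50 of the 32851 promoters (0.152%) hold on either strand. Since these 12 bases were picked from the windows, nothing is read from that share. No core lay in the single Pnp entry. Members with a core included ones higher (Ada, Slc29a1, Nt5e) and lower (Adk) in an endothelial class of the PCB126 library. Adora2b, with 0 UMIs in both endothelial classes, also held the core. These matches describe sequence only, since no binding was measured in these libraries, and a link to the ratios was not tested.

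Ada (ENSMUSG00000017697, chromosome 2, 163726584 to 163750239, GRCm38) was higher in both endothelial classes of the PCB126 library. In LSEC-like cells it stood at 80.7 CPM (210 UMIs) in PCB126 cells and 11.7 CPM (11 UMIs) in Control cells, a ratio of 6.89 (3.77 to 14.02). In vascular endothelial-like cells it stood at 90.0 CPM (102 UMIs) in PCB126 cells and 27.3 CPM (28 UMIs) in Control cells, a ratio of 3.30 (2.15 to 5.20). In neither class did the intervals of the levels overlap. Within each library the intervals of the 2 endothelial classes overlapped.

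The Ada difference was spread over cells. An Ada UMI was seen in 148 of 459 LSEC-like PCB126 cells (32.2%) and in 11 of 164 Control cells (6.71%), and 103 of the 148 PCB126 cells held 1 UMI. A further 32 PCB126 cells held 2 UMIs, 10 held 3, 2 held 4 and 1 held 5 or more, while 0 Control cells held more than 1. After each cell was thinned to 1000 UMIs, the shares were 27 of 456 PCB126 cells (5.92%) and 2 of 161 Control cells (1.24%). Cholangiocyte-like cells, a background class for Ada, held an Ada UMI in 2 of 83 PCB126 cells (2.41%) and 0 of 65 Control cells. The median depth of that class was 15951 UMIs in PCB126 and 10729 in Control cells, and that of LSEC-like cells 5450 in PCB126 and 5574.5 in Control cells. Barcodes with under 250 genes held 4.85 CPM of Ada in the PCB126 library (2063326 UMIs, 1460 barcodes) and 0.846 CPM in the Control library (9457963 UMIs, 6252 barcodes). Whether these barcodes hold free RNA or RNA-poor cells was not tested.

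Slc29a1 (ENSMUSG00000023942, chromosome 17, 45585200 to 45599606), the ENT1 transporter gene, was higher by about the same factor in both endothelial classes. LSEC-like cells held 732.1 CPM (1905 UMIs) in the PCB126 library and 353.5 CPM (332 UMIs) in the Control library, a ratio of 2.07 (1.84 to 2.33). Vascular endothelial-like cells held 974.3 CPM (1104 UMIs) in the PCB126 library and 438.1 CPM (449 UMIs) in the Control library, a ratio of 2.22 (1.99 to 2.49). The intervals of these ratios overlapped, and a difference between the classes was not tested. A UMI was seen in 417 of 459 PCB126 (90.8%) and 118 of 164 Control (72.0%) LSEC-like cells, and 174 of those PCB126 cells held 5 UMIs or more against 21 of the Control cells. Neutrophil-like cells, a background class here with median depths of 3944.5 UMIs in PCB126 and 3568 in Control cells, held a Slc29a1 UMI in 3.13% of PCB126 and 0.513% of Control cells. In barcodes with under 250 genes Slc29a1 stood at 43.6 CPM in the PCB126 library and 7.30 CPM in the Control library. This background thus also differed between the libraries. Slc29a1 overlaps Gm17080 on the opposite strand, and use of strand in the counting was not stated.

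Pnp (ENSMUSG00000021871, chromosome 14, 50944517 to 50963136) lay past the threshold of 1.5 in LSEC-like cells and short of it in vascular endothelial-like cells. LSEC-like cells held 217.5 CPM (566 UMIs) in the PCB126 library and 131 CPM (123 UMIs) in the Control library, a ratio of 1.66 (1.36 to 2.04). Vascular endothelial-like cells held 240.9 CPM (273 UMIs) in the PCB126 library and 171.7 CPM (176 UMIs) in the Control library, a ratio of 1.40 (1.16 to 1.71). Both ratios were above 1 and their intervals overlapped. Pnp overlaps its near-identical copy Pnp2, which held 114 UMIs in PCB126 and 68 in Control cells against 1536 PCB126 and 1192 Control UMIs for Pnp, so counts may have been split between them. With barcodes up to 50% mitochondrial UMIs the LSEC-like log2 ratio of Pnp was 0.50, against 0.73 here, which falls short of the threshold.

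The receptor gene Adora2a (ENSMUSG00000020178, chromosome 10, 75316877 to 75334784) was lower in LSEC-like cells of the PCB126 library. It stood at 8.07 CPM (21 UMIs) in PCB126 cells and 45.8 CPM (43 UMIs) in Control cells, a ratio of 0.176 (0.0994 to 0.304). It was seen in 20 of 459 PCB126 cells (4.36%) and 34 of 164 Control cells (20.7%), and after thinning in 6 of 456 PCB126 (1.32%) and 9 of 161 Control cells (5.59%). In a separate random draw of 1000 UMIs per cell the log2 ratio was -0.77 in place of -2.50, a smaller difference still past 1.5 times lower. The thinned shares above come from another draw, and both draws hold few UMIs. The size of the difference after thinning is therefore unsettled. The background class, cholangiocyte-like cells, held 0 Adora2a UMIs in both libraries. Among Control classes it was highest in LSEC-like and monocyte-like cells, whose intervals overlapped. Vascular endothelial-like cells held 1 UMI in the PCB126 library and 0 in the Control library, where 3 counts would be 2.93 CPM.

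Entpd1, the CD39 gene (ENSMUSG00000048120, chromosome 19, 40612366 to 40741602), was foremost a gene of the vascular endothelium. It stood at 476.6 CPM (540 UMIs) in PCB126 and 441 CPM (452 UMIs) in Control vascular endothelial-like cells, a ratio of 1.08. In LSEC-like cells it stood at 14.2 CPM (37 UMIs) in PCB126 and 41.5 CPM (39 UMIs) in Control cells, a ratio of 0.342 (0.212 to 0.551). That lower value depended on where the line between the endothelial classes was drawn. With cells classed by clusters the log2 ratio was 0.63 in place of -1.55, so no direction can be given for LSEC-like cells as a whole. Entpd1 overlaps Gm16027, Gm8783 and AC166063.1 and Xdh overlaps CT025731.2, so reads of these pairs may not have been told apart.

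The other members differed less or were sparse in endothelial cells. Adk (ENSMUSG00000039197, chromosome 14, 21052574 to 21448569) was at 44.1 CPM in PCB126 and 67.3 CPM in Control vascular endothelial-like cells, a ratio of 0.655 (0.446 to 0.957), and at 16.1 CPM in PCB126 and 23.4 CPM in Control LSEC-like cells, a ratio of 0.689 (0.402 to 1.21). The vascular value stayed past 1.5 times lower in 9 of 12 alternative settings. Nt5e, the CD73 gene (ENSMUSG00000032420, chromosome 9, 88327197 to 88372092), had 21 UMIs in PCB126 (18.5 CPM) and 5 in Control (4.88 CPM) vascular endothelial-like cells, a ratio of 3.80 (1.39 to 12.9). In LSEC-like cells Nt5e had 9 UMIs in PCB126 and 2 in Control cells. Xdh (ENSMUSG00000024066, chromosome 17, 73883895 to 73950196) was at 160.6 CPM in PCB126 and 176.7 CPM in Control LSEC-like cells, a ratio of 0.909 (0.758 to 1.09), and at 195.9 CPM in PCB126 and 180.5 CPM in Control vascular endothelial-like cells, a ratio of 1.09. Adora2b (ENSMUSG00000018500, chromosome 11, 62248984 to 62266453) had 0 UMIs in both endothelial classes of both libraries.

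Counted over members, LSEC-like cells had 7 of 9 with at least 20 UMIs over both libraries. Of these, 3 were at least 1.5 times higher (Ada, Slc29a1, Pnp) and 2 at least 1.5 times lower (Entpd1, Adora2a), where 16.7% of the 9008 genes measured in the class were higher and 11.3% lower by the same rule. Vascular endothelial-like cells also had 7 measured members, with 3 higher (Ada, Slc29a1, Nt5e) and 1 lower (Adk), where 8.13% of 8315 genes were higher and 15.1% lower. Since the members were taken up with results of this contrast known, nothing is read from these shares. The median log2 ratio of all genes measured was 0.05 in LSEC-like cells and -0.09 in vascular endothelial-like cells.

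**Figure D1:**
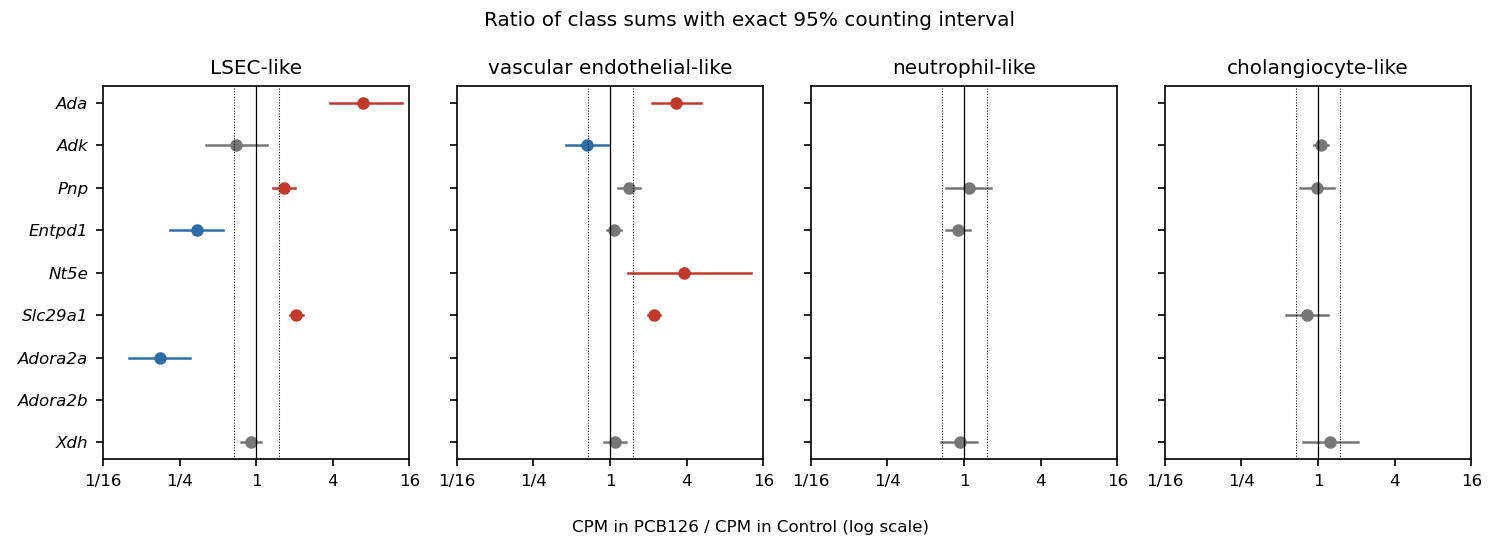
Ratio of CPM in PCB126 over CPM in Control (log scale) with its exact 95% counting interval for each member with at least 20 UMIs in 4 cell classes, red past 1.5 times higher, blue past 1.5 times lower and grey between, with dotted lines at those limits. Ada and Slc29a1 lie to the right in both endothelial classes, while the neutrophil-like and cholangiocyte-like members plotted lie between the dotted lines. Under 20 UMIs and so not drawn are Ada in both of those classes and Slc29a1 in neutrophil-like cells. Adk in neutrophil-like cells, with 0 UMIs in the PCB126 library, is not drawn.

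The 2 classes compared outside the endothelium showed 0 members past the threshold. Ada had too few UMIs to be called in either, with 1 in PCB126 and 15 in Control neutrophil-like cells. In cholangiocyte-like cells Ada had 2 UMIs in PCB126 and 0 in Control cells. Slc29a1, with 3 UMIs in PCB126 and 4 in Control neutrophil-like cells, could not be called there either. In neutrophil-like cells 4 members were measured and 0 were called higher or lower, where 22.9% of 6294 genes were higher and 16.6% lower. Entpd1 stood at 242.1 CPM (101 UMIs) in PCB126 and 268.4 CPM (866 UMIs) in Control neutrophil-like cells, a ratio of 0.902, and Xdh at 107.9 CPM in PCB126 and 117.2 CPM in Control cells, a ratio of 0.921. Adk had 0 UMIs in PCB126 and 31 in Control neutrophil-like cells, at least 1.34-fold lower when 3 counts are put for the 0. In cholangiocyte-like cells 4 members were measured and 0 called, where 10.7% of 9812 genes were higher and 6.83% lower. Adk was the leading member there, at 391.4 CPM (658 UMIs) in PCB126 and 371.4 CPM (446 UMIs) in Control cells, a ratio of 1.05 (0.933 to 1.19). In a single random thinning draw, which leaves few UMIs, 4 of these log2 ratios lay past 1.5 times. They were Xdh in neutrophil-like cells at -0.89, and Slc29a1 at 1.65, Pnp at 0.87 and Xdh at 0.65 in cholangiocyte-like cells. A separate draw showed Xdh in 11.5% of both PCB126 and Control neutrophil-like cells. For cholangiocyte-like cells it gave PCB126 and Control shares of 3.61% and 3.08% for Slc29a1, 9.64% and 4.62% for Pnp, and 4.82% and 0% for Xdh. These thinned values thus varied with the draw. At a mitochondrial limit of 50% Adk in neutrophil-like cells was at -0.85. Over all 4 classes, 22 of 36 pairs of member and class were measured, with 6 higher and 3 lower.

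Levels were ordered over the named cell classes with at least 20 cells, which leaves out the endothelial cells between the LSEC-like and vascular classes. In those cells Ada stood at 76.3 CPM in PCB126 and 50.6 CPM in Control cells. Among the ordered classes Ada in the PCB126 library was highest in vascular endothelial-like and LSEC-like cells, followed by T-like cells at 10.5 CPM, and the step to T-like cells exceeded the intervals. In the Control library the ordered classes were led by plasma-like cells at 49.5 CPM (66 UMIs in 29 of 55 cells), whose interval of 38.3 to 62.9 CPM overlapped that of vascular endothelial-like cells. The top 3 of those plasma-like cells carried 31.8% of the Ada UMIs. Plasma-like cells were only 4 in the PCB126 library, so no level is given for them there.

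Slc29a1 and Xdh were led by the endothelium in both libraries. The next class for Slc29a1 was cholangiocyte-like cells at 37.5 CPM in the PCB126 library and erythroid-like cells at 50.5 CPM in the Control library, far below the endothelial levels. Xdh was next highest in neutrophil-like cells of both libraries and reached 85.4 CPM in Control monocyte-like cells. Pnp was widespread, with 187.5 CPM in PCB126 cDC2-like dendritic cells and 133.4 CPM in PCB126 and 117.1 CPM in Control cDC1-like dendritic cells. Adk was far higher in cholangiocyte-like cells than in any other ordered class of either library, the next being vascular endothelial-like cells in both. The 13 hepatocyte markers summed to 6049 CPM in PCB126 and 7784 CPM in Control cholangiocyte-like cells. Hepatocyte-like cells, 1 in PCB126 and 0 in Control, were too few to be ordered. The part of hepatocyte RNA in this Adk level was not tested. Entpd1 was highest in vascular endothelial-like and next in neutrophil-like cells in both libraries, a step that exceeded the intervals, and was as low as 0.595 CPM in PCB126 and 0.833 CPM in Control cholangiocyte-like cells.

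The receptors lay outside the vascular endothelium. Adora2a stood at 37.7 CPM (18 UMIs) in PCB126 T-like cells, at 15.5 CPM in PCB126 cDC2-like cells and at 43.3 CPM (157 UMIs) in Control monocyte-like cells. Adora2b was carried by Control monocyte-like cells, with 71 of the 80 UMIs in all Control cells and a level of 19.6 CPM (15.3 to 24.7), while all PCB126 cells together held 5 UMIs. The 2 main clusters of Control monocyte-like cells differed in Adora2a, taken over all Control cells of each cluster. It stood at 49.0 CPM (160 UMIs, 420 cells) in the cluster with Cd300e and Ear2 among its top genes, as in non-classical monocytes, and at 3.16 CPM (3 UMIs, 61 cells) in the cluster led by the granule genes Mpo and Elane, as in myeloid progenitors. Both values are from the Control library. The PCB126 library had 18 monocyte-like cells, 16 of them in a cluster led by C1qc and C1qa, so no level is compared.

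**Figure D2:**
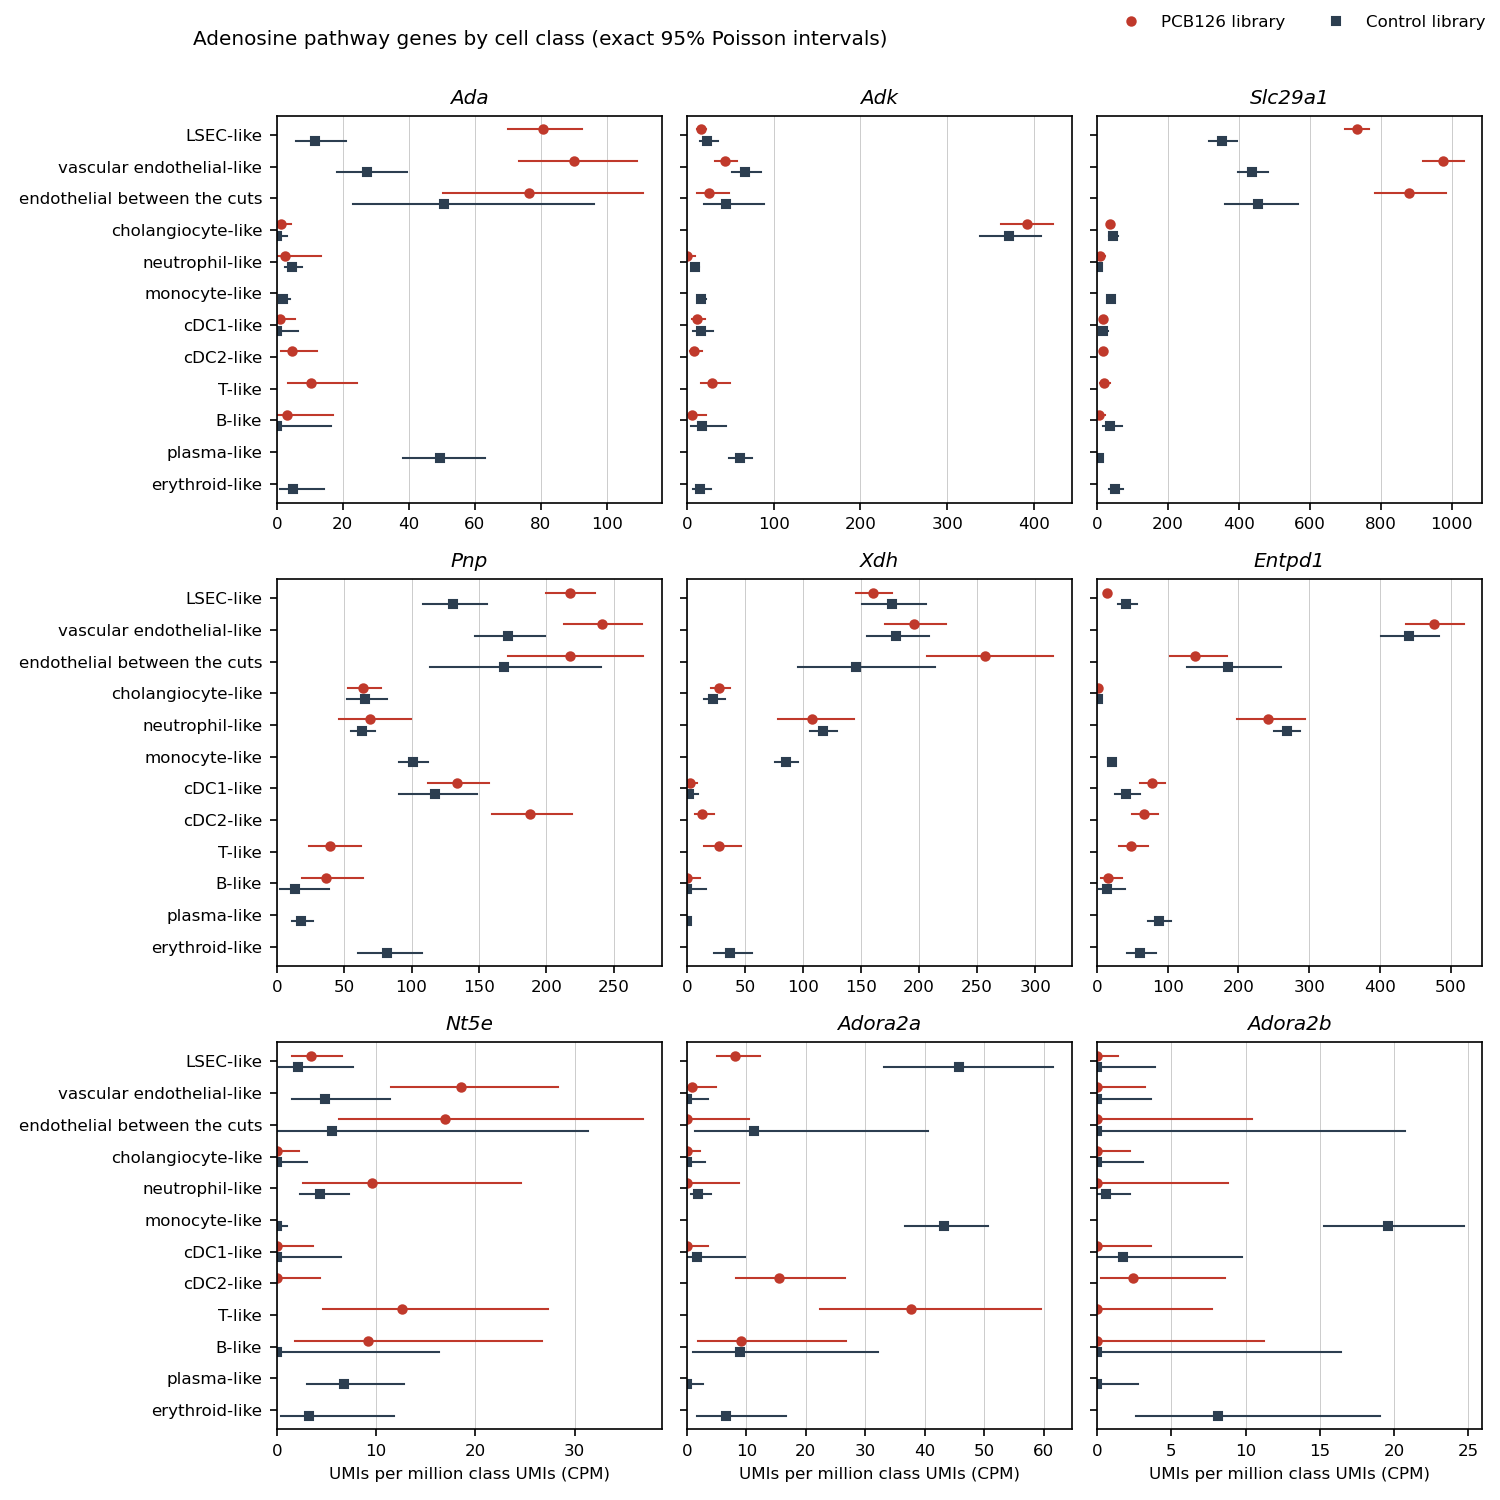
Level of each member as CPM by cell class, with red circles for the PCB126 library, dark squares for the Control library and lines for exact 95% Poisson intervals; a class with under 20 cells in a library has no point, and the axes differ between genes. Adk stands out in cholangiocyte-like cells, Entpd1 in vascular endothelial-like and neutrophil-like cells, and Adora2b at 19.6 CPM in Control monocyte-like cells.

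The endothelium was also followed without a line between classes, along the LSEC marker score minus the vascular marker score of each cell. Ada was higher in the PCB126 library in each of 6 bins. It stood at 68.4 CPM (48 UMIs) in PCB126 and 18.8 CPM (12 UMIs) in Control cells at the vascular end. At the sinusoidal end it stood at 84.6 CPM (86 UMIs) in 181 PCB126 cells and had 0 UMIs in 38 Control cells. The intervals overlapped in 1 bin, that from 0.5 to 1, with 76.3 CPM in 54 PCB126 cells and 50.6 CPM in 26 Control cells. Slc29a1 was higher in the PCB126 library in all 6 bins with no overlap, with 897.2 CPM in PCB126 and 406.7 CPM in Control cells at the vascular end and 668.3 CPM in PCB126 and 356.5 CPM in Control cells at the sinusoidal end. Its highest bin was that from 0 to 0.5 in both libraries, at 1100.03 CPM in PCB126 and 489.5 CPM in Control cells.

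Entpd1 and Adora2a ran in opposite directions along this axis. Entpd1 was at 522.6 CPM in PCB126 and 508.8 CPM in Control cells at the vascular end, and at 0.984 CPM in PCB126 and 4.82 CPM in Control cells (1 UMI each) at the sinusoidal end. In the bin from 1 to 1.5 it was at 45.5 CPM (22 UMIs) in PCB126 and 91.3 CPM (31 UMIs) in Control cells, with overlapping intervals. Adora2a had 1 UMI in PCB126 and 0 in Control cells at the vascular end. In the 3 bins toward the sinusoidal end its PCB126 levels were 0, 12.7 and 6.89 CPM (0, 14 and 7 UMIs), and its Control levels 29.4, 40.8 and 81.9 CPM (10, 16 and 17 UMIs). The intervals of the 2 libraries did not overlap in any of those 3 bins.

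**Figure D3:**
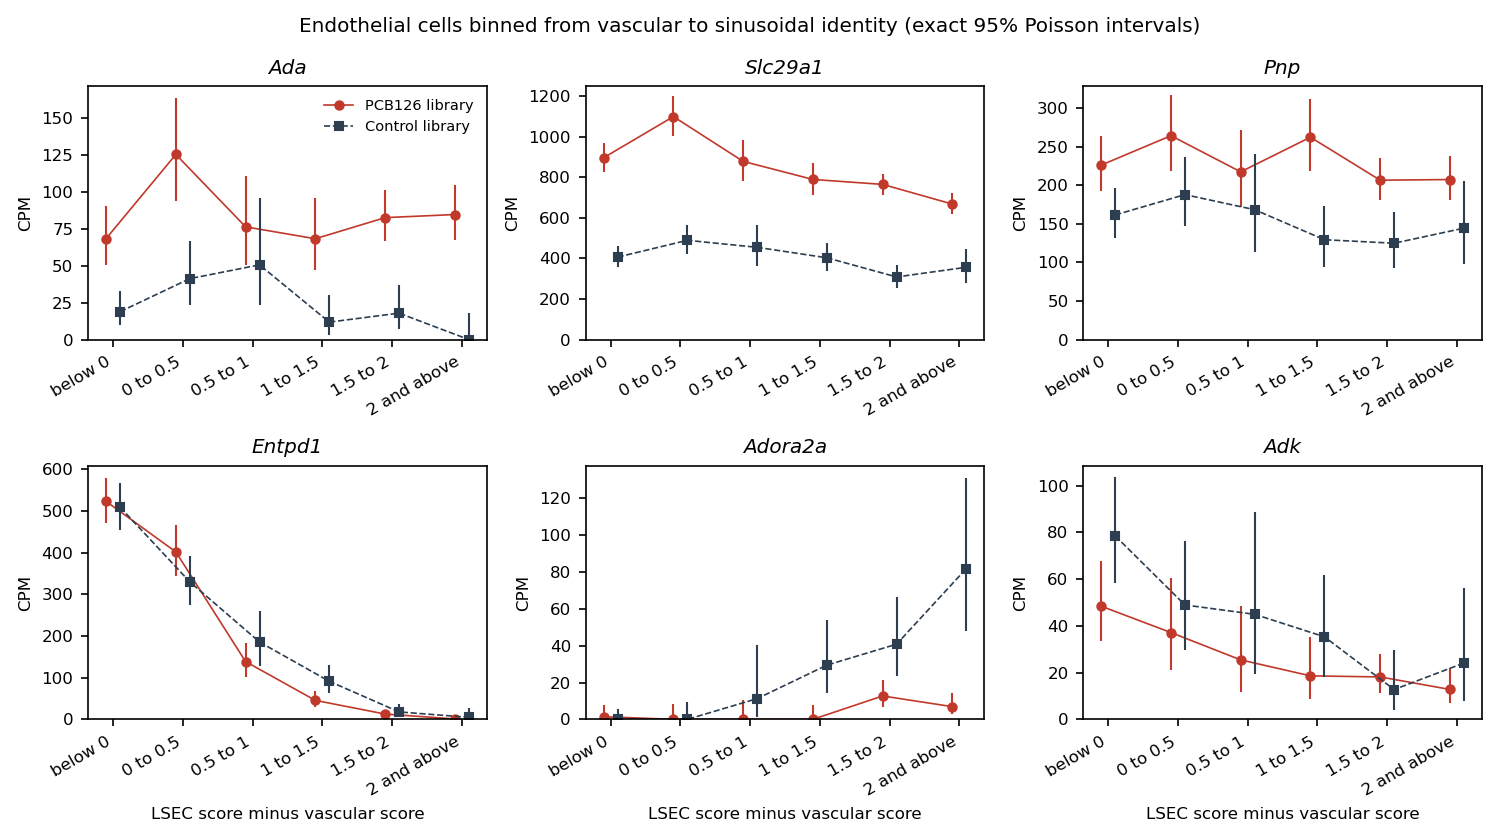
Level (CPM) of 6 members in endothelial cells binned by LSEC score minus vascular score, vascular end at the left, with red circles and solid lines for the PCB126 library, dark squares and dashed lines for the Control library and bars for exact 95% Poisson intervals. Ada and Slc29a1 lie higher in PCB126 at every bin, Entpd1 declines toward the sinusoidal end in both libraries, and Adora2a at that end reaches 6.89 CPM in PCB126 and 81.9 CPM in Control cells.

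Clusters made without the members gave a further view, since the LSEC-like cells of the 2 libraries lay mostly in different clusters. A cluster with Lyve1 and Stab2 among its top genes held 299 PCB126 and 13 Control LSEC-like cells, whereas a cluster led by Esm1 and Abcc9 held 10 PCB126 and 97 Control LSEC-like cells. Another, with Slc18a2 and Ltc4s among its top genes, held 119 PCB126 and 20 Control LSEC-like cells. Within this cluster, over all its cells, Ada was at 103.9 CPM (124 UMIs, 162 cells) in PCB126 and 6.82 CPM (1 UMI, 22 cells) in Control cells, and Slc29a1 at 967.3 CPM in PCB126 and 579.3 CPM in Control cells, with no overlap of intervals for either. The same cluster held Entpd1 at 91.4 CPM in PCB126 and 68.2 CPM in Control cells, with overlapping intervals.

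The 2 main vascular clusters had similar cell numbers from each library and differed from each other in Ada, Slc29a1, Pnp and Entpd1. The cluster led by Fxyd6 and Bmp4 held 90 PCB126 and 88 Control cells, with Ada at 97.8 CPM (83 UMIs) in PCB126 and 37.5 CPM (37 UMIs) in Control cells and Slc29a1 at 1136 CPM in PCB126 and 532.5 CPM in Control cells. The cluster with Gja5 and Sema3g, known arterial endothelial genes, held 38 PCB126 and 39 Control cells. There Ada was at 15.7 CPM (5 UMIs) in PCB126 and 5.97 CPM (2 UMIs) in Control cells, and Slc29a1 at 201.5 CPM in PCB126 and 143.2 CPM in Control cells, with overlapping intervals between the libraries for both genes. Pnp was at 103.9 CPM in PCB126 and 104.4 CPM in Control cells there, and at 281.6 CPM in PCB126 and 189.7 CPM in Control cells in the first cluster. Entpd1 was likewise lower in that arterial-marker cluster, at 85.0 CPM in PCB126 and 71.6 CPM in Control cells, against 565.6 CPM in PCB126 and 485.9 CPM in Control cells in the first. A cluster led by the smooth muscle genes Myh11 and Myl9 held 22 PCB126 and 12 Control LSEC-like cells. Without it, the LSEC-like log2 ratio was 2.74 for Ada and 1.04 for Slc29a1.

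LSEC-like cells were split further by scores of pericentral and periportal endothelial genes. On the pericentral side Ada stood at 86.8 CPM (124 UMIs, 234 cells) in PCB126 and 17.7 CPM (9 UMIs, 78 cells) in Control cells, a ratio of 4.90 (2.50 to 11.0). On the periportal side it stood at 73.3 CPM (86 UMIs, 225 cells) in PCB126 and 4.64 CPM (2 UMIs, 86 cells) in Control cells, a ratio of 15.8 with a lower bound of 4.24. Slc29a1 had ratios of 1.78 (855.8 CPM in PCB126, 480 CPM in Control) on the pericentral side and 2.85 (581.4 CPM in PCB126, 204.2 CPM in Control) on the periportal side. Both genes were thus higher in the PCB126 library on either side, and Slc29a1 was higher on the pericentral side within each library. Entpd1 lay almost wholly on the pericentral side, with 34 of 37 PCB126 UMIs and 37 of 39 Control UMIs, while Adora2a had a ratio of 0.131 on the pericentral and 0.214 on the periportal side.

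Over the 8 sums of 4 classes and 2 libraries, the genes whose log2 level was most like that of Ada, among 10897 genes with at least 100 UMIs, were Prkd2 (Pearson r = 0.962), Nqo1 (0.955), Pnp (0.952), Slc7a5 (0.951) and Tcn2 (0.948). Nqo1, a quinone reductase regulated by AHR and NRF2, had ratios of 4.18 in LSEC-like and 4.56 in vascular endothelial-like cells. Of the other members Xdh had r = 0.836 with Ada, Slc29a1 0.732, Entpd1 0.537, Adora2a 0.382 and Adk -0.216. Nt5e and Adora2b fell short of 100 UMIs. These values describe 8 points that share cells, libraries and depth, and they follow levels across classes as well as between libraries. Xdh reached its r of 0.836 with ratios of 0.909 in LSEC-like and 1.09 in vascular endothelial-like cells.

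The wider pathway was read from 9 lists of purine and adenosine genes with 78 members, 69 of them outside the 9 genes above. In LSEC-like cells all 3 measured P2 receptor genes were higher in the PCB126 library. They encode the channels and G protein-coupled receptors that ATP and ADP bind before they are hydrolysed. The list of ATP release and P2 receptors has 10 genes, and the 3 measured had a median log2 ratio of 1.98. P2rx4, an ATP-gated channel known from endothelial flow sensing, stood at 171.8 CPM (447 UMIs) in PCB126 and 43.7 CPM (41 UMIs) in Control LSEC-like cells, a ratio of 3.94 (2.85 to 5.56). P2rx7, the ATP-gated channel that acts upstream of the inflammasome, stood at 49.96 CPM (130 UMIs) in PCB126 and 9.58 CPM (9 UMIs) in Control cells, a ratio of 5.21 (2.66 to 11.7). P2ry1, an ADP receptor, stood at 56.1 CPM (146 UMIs) in PCB126 and 19.2 CPM (18 UMIs) in Control cells, a ratio of 2.93 (1.79 to 5.08). All 3 had intervals wholly above 1.5, as had 2.5% of the 6787 genes that reached 50 UMIs there, while 1.81% lay wholly below 1.5 times lower. P2 receptor ratios were not recomputed under other settings.

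In vascular endothelial-like cells P2rx4 was at 49.4 CPM (56 UMIs) in PCB126 and 19.5 CPM (20 UMIs) in Control cells, a ratio of 2.53 (1.496 to 4.46). P2rx7 had 11 UMIs in each library there, a ratio of 0.905. Whether the P2rx7 ratio differs between the classes was not tested. The gene in that class with an interval wholly past 1.5, outside the 9, was Gda, guanine deaminase, at 50.3 CPM (57 UMIs) in PCB126 and 157.1 CPM (161 UMIs) in Control cells, a ratio of 0.320 (0.232 to 0.436), where 0.973% of 5551 genes were wholly higher and 1.75% wholly lower. Gda was at 932.6 CPM in PCB126 and 994.3 CPM in Control neutrophil-like cells.

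The lists as a whole held genes on both sides. In LSEC-like cells, without the 9 genes, 31 list members were measured, with 6 higher and 7 lower and a median log2 ratio of 0.22, beside 16.7% of all measured genes higher and 11.3% lower. In vascular endothelial-like cells 30 were measured, with 3 higher and 6 lower and a median of -0.03, beside 8.13% of all genes higher and 15.1% lower. Neutrophil-like cells had 23 measured, with 1 higher and 7 lower, beside 22.9% of all genes higher and 16.6% lower. Cholangiocyte-like cells had 41 measured, with 5 higher and 1 lower, beside 10.7% of all genes higher and 6.83% lower. No interval lay wholly past 1.5 for a list gene in neutrophil-like cells, where 3.7% of all genes with at least 50 UMIs were wholly higher and 2.88% wholly lower, or in cholangiocyte-like cells, where 0.75% were wholly higher and 0.832% wholly lower. The list of de novo purine synthesis had 2 of 10 measured genes higher and 3 lower in LSEC-like cells, where 16.7% of all genes were higher and 11.3% lower. Adss, of AMP synthesis, was at 62.3 CPM in PCB126 and 96.9 CPM in Control LSEC-like cells. Nt5c, a cytosolic nucleotidase, was at 30.0 CPM (78 UMIs) in PCB126 and 11.7 CPM (11 UMIs) in Control LSEC-like cells, a ratio of 2.56 (1.35 to 5.34). Aox1, an aldehyde oxidase that also acts on purines, was at 8.84 CPM in PCB126 and 23.4 CPM in Control LSEC-like cells, a ratio of 0.377.

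**Figure D4:**
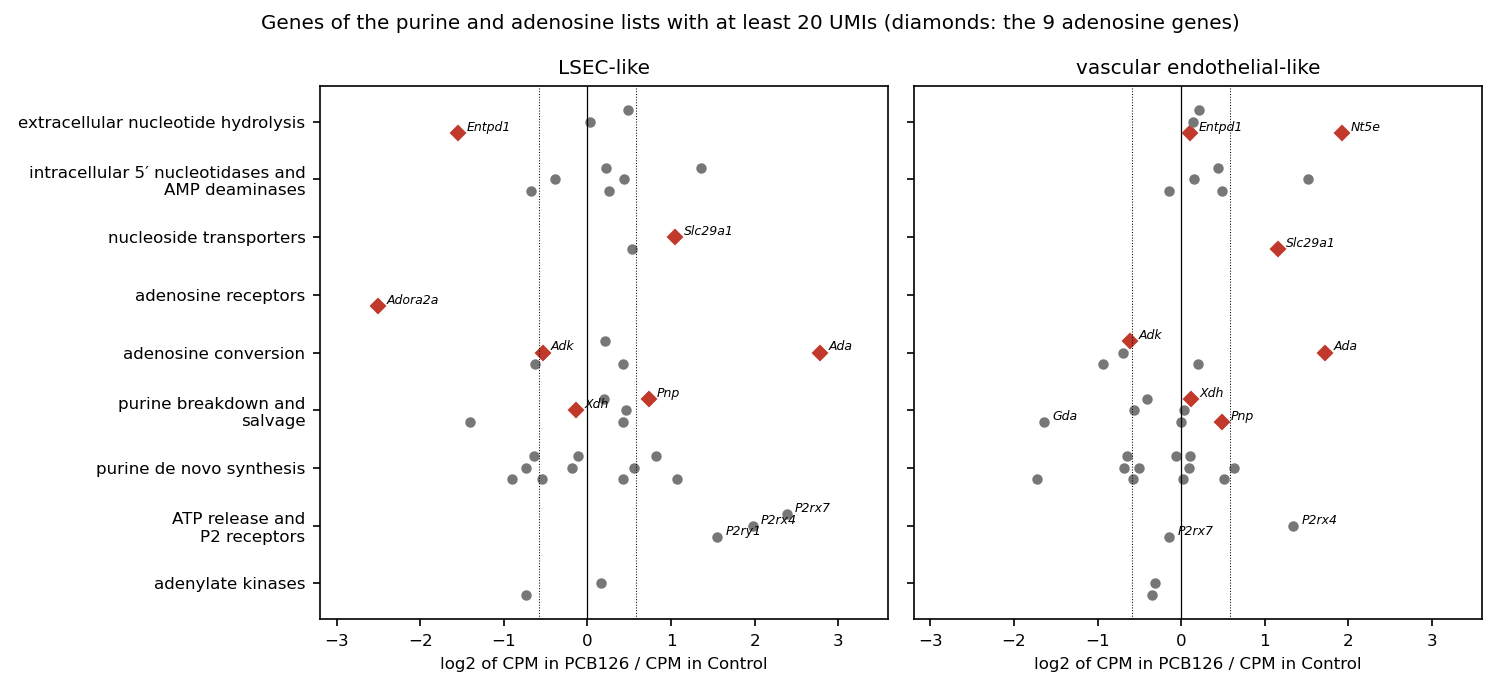
Log2 ratio of CPM in PCB126 over CPM in Control for each gene of the purine and adenosine lists with at least 20 UMIs over both libraries, in LSEC-like cells at the left and vascular endothelial-like cells at the right, with the 9 adenosine genes as red diamonds, the other genes as grey circles and dotted lines at 1.5 times. Ada lies farthest to the right in LSEC-like cells, Nt5e in vascular endothelial-like cells, and all 3 measured P2 receptor genes lie to the right in LSEC-like cells.

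Markers of other cell types were compared between the libraries within the endothelial classes. In LSEC-like cells the 13 hepatocyte markers summed to 151.8 CPM in PCB126 and 434.4 CPM in Control cells, with 1 at 0 in each library. The 12 neutrophil markers summed to 81.5 CPM in PCB126 and 227.8 CPM in Control cells, with 2 at 0 in PCB126 and 1 at 0 in Control cells. The 11 erythroid markers summed to 797.4 CPM in PCB126 and 1396 CPM in Control cells. Plasma cell markers, of the other class with a high Ada level, summed to 146.4 CPM in PCB126 and 186.3 CPM in Control LSEC-like cells. In vascular endothelial-like cells the hepatocyte markers summed to 134.1 CPM in PCB126 and 280.005 CPM in Control cells and the erythroid markers to 95.3 CPM in PCB126 and 901.5 CPM in Control cells. Plasma cell markers there summed to 248.9 CPM in PCB126 and 238.1 CPM in Control cells, and cholangiocyte markers to 198.6 CPM in PCB126 and 186.3 CPM in Control cells, both slightly higher in the PCB126 library. The summed profile of barcodes with under 250 genes was taken as a stand-in for free RNA, which was not checked. Its estimated share of the counts was 0.483% in PCB126 and 0.371% in Control LSEC-like cells. With that profile subtracted, the Ada and Slc29a1 ratios stayed on the same side of 1.5. So small a share can hardly move a ratio, so nothing is concluded from this about RNA from other cells. The mitochondrial share of LSEC-like cells was 14.99% in PCB126 and 11.5% in Control cells, and its part in the ratios was not tested beyond the other mitochondrial limits tried.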

How the data were processed

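Droplet 3′ single-cell libraries of 2 mouse livers, 1 per group, were analysed. The matrices deposited by the authors contain UMI counts that were not normalized. Cell Ranger 6.0.0 wrote them, per the file headers; Cell Ranger 6.1.1 and Seurat 4.0.1 are listed in the submitters' processing notes. Their build was not given in the sources used here. The deposited gene and barcode lists hold other content, namely identifiers. Of 34244 gene identifiers, 34049 occur in GENCODE M21 (GRCm38), which gave positions.

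The PCB126 matrix held 4307 barcodes and 16269562 UMIs, the Control matrix 8550 barcodes and 24134912 UMIs. Cells had at least 500 UMIs, 250 genes and at most 20% mitochondrial UMIs. The barcodes with the highest Scrublet scores were removed at 0.8% per 1000 barcodes (11 in PCB126, 28 in Control). Each cell was classed by mean log counts per 10000 over fixed marker lists: the best list had to lead the next by 0.2, with at least 3 markers seen. Endothelial cells were split by LSEC minus vascular score, at least 1 or under 0.5. This scoring and its limits were chosen after the data were seen. Unassigned cells were 4.04% (PCB126) and 2.48% (Control).

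UMIs were summed per class and scaled by the class total. Ratios carry exact conditional binomial intervals, levels exact Poisson intervals. A sum of 0 was set to 3 counts. A gene was called past 1.5 times with at least 20 UMIs over both libraries, in classes with at least 50 cells per library. Genes outside the members were named with at least 50 UMIs and an interval wholly past 1.5. Those named beyond this rule (Nt5c, Aox1, Adss, and P2rx4, P2rx7 and Gda in further classes) were chosen after their values were seen, as were the genes that describe clusters. The members and lists were chosen with earlier results of these data known. The scripts were tested on simulated data. Python 3.11.15, scanpy 1.11.5, scipy 1.17.1, numpy 2.4.6 and pandas 2.3.3 were used.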

Additional observations from a re-analysis of the deposited data

Results flagged for a closer look

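Barcodes of 20% to 50% mitochondrial UMIs, which the cell filter left out, also carried Slc29a1. In those that fell in the LSEC-like gate, Slc29a1 stood at 518.3 CPM (1112 UMIs, 705 barcodes) in the PCB126 library and 231.9 CPM (28 UMIs, 60 barcodes) in the Control library, with intervals that did not overlap. Ada stood at 48.0 CPM (103 UMIs) in the PCB126 library and 16.6 CPM (2 UMIs) in the Control library in the same barcodes, with overlapping intervals.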

How the results depend on the processing

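The 22 member ratios were recomputed under 12 other settings, and LSEC-like ratios under 3 zone settings as well. Of 285 values, 263 stayed within the interval of the ratio. The log2 value took the other sign in 16, of which 15 belonged to ratios between the limits of 1.5 times and 1 to a ratio past them (Entpd1 in LSEC-like cells with clusters). As log2 ratios, Ada in LSEC-like cells (2.78) ranged from 2.04 after thinning to 3.98 on the periportal side alone, and in vascular endothelial-like cells (1.72) from 1.35 with clusters to 1.85. Slc29a1 in LSEC-like cells (1.05) was 1.25 after thinning, 0.83 on the pericentral and 1.51 on the periportal side alone. These 3 ratios stayed past 1.5 times in every setting run. Entpd1 in LSEC-like cells (-1.55) was 0.63 with clusters and -0.28 after thinning. In a separate thinning draw Entpd1 was seen in 4 of 456 PCB126 (0.877%) and 9 of 161 Control LSEC-like cells (5.59%). The thinned values rest on few UMIs and varied with the draw. Adora2a in LSEC-like cells ranged from -2.93 to -0.77. Thinning to 1000 UMIs, a single random draw that leaves few UMIs per member, gave 14 ratios past 1.5 times (9 higher, 5 lower). The main setting gave 9 (6 higher, 3 lower). The setting without the cluster led by Myh11 was chosen after seeing the data. No paired analysis was possible because each group is 1 library. Depth limits Nt5e and Adora2b most.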
